A study of Mus musculus with 22 samples.

Results

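Glycolysis and hypoxia response genes were followed in mouse embryonic stem cells in which ribosomal protein genes had been depleted. The 38 members form a list of glycolytic enzymes, glucose and lactate transporters, regulatory kinases, oxygen sensors and targets of hypoxia-inducible factor. They were taken by symbol from 24819 genes present in both deposited tables. Members were chosen with earlier results of these data known. Shares of all genes given beside member counts below therefore describe the list and are no test of it. RNA was sequenced from 22 libraries of E14 cells, a mouse embryonic stem cell line grown on gelatin in serum with leukemia inhibitory factor. Cells had been harvested 3 days after small interfering RNA (siRNA) was introduced with DharmaFECT. There were 6 kinds of library, each named for a pair of siRNAs: siNT with siNT (called siNT, treated here as the control, since the labels do not spell out NT), siNT with siDux, siNT with siRpl11, siNT with siRpl14, siRpl14 with siDux, and siRpl14 with siRpl11. The products of Rpl14 and Rpl11 belong to the large subunit of the ribosome, and Dux encodes a transcription factor of the 2-cell embryo. All 6 kinds thus carried siRNA and transfection reagent, and an untransfected culture was not analysed here.

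Libraries were read in 3 sets, by table and title style. Set 1 held 2 libraries each of siNT, siRpl11, siRpl14 and siRpl14+siRpl11. Set 2, in the same table, held 1 library for each of 4 kinds: siNT, siDux, siRpl14 and siRpl14+siDux. Set 3, the other table, held 2 libraries for each of those 4 kinds, and single libraries of siRpl11 and siRpl14+siRpl11. Values are FPKM (fragments scaled to transcript length and library size), so levels may be compared between genes only on that per-length scale. Sets 1 and 3 were each fitted with limma on log2(FPKM + 1), and a gene was called where the p-value, adjusted over all genes tested by the Benjamini-Hochberg method, was under 0.05. The text writes "rose" and "fell" only for such calls. Fold changes are given in log2 ± SE with 2 libraries a group. Single libraries were described, and there a difference beyond 0.5 in log2(FPKM + 1) was counted. Whether replicates were grown as separate cultures is not in the labels. The p-values therefore cover the spread between these samples alone, and that spread may be technical.

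Glycolysis breaks glucose down to pyruvate through a chain of cytosolic enzymes, and lactate dehydrogenase turns the pyruvate into lactate when it is not burned in mitochondria. Many of these enzymes, the glucose transporters and a group of genes outside metabolism are transcribed by hypoxia-inducible factor (HIF), a pair of an oxygen-labile alpha subunit and the stable subunit Arnt. In oxygen, prolyl hydroxylases mark the alpha subunit and the Vhl ubiquitin ligase removes it, and pluripotent stem cells are known for a high rate of glycolysis even in air.

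The siRNA targets and cell type markers were checked first. Rpl14 had a level of 1550.3 and 1417 FPKM in siNT of set 1 (replicates 1 and 2, the order used throughout), 893 and 402 FPKM with siRpl14 and 232 and 524 FPKM with siRpl14+siRpl11. Rpl11 stood at 829 and 661 FPKM in siNT, 260.1 and 113 FPKM with siRpl11 and 98.4 and 249 FPKM with both. Knockdown was thus uneven between replicates. Dux was low in every library, but higher with siRpl14 alone than in siNT in sets 1 and 2. In set 1 it stood at 0.368 and 0.202 FPKM in siNT and 1.45 and 1.11 FPKM with siRpl14. It stood at 0.482 and 0.296 FPKM with siRpl11 and 0.524 and 0.687 FPKM with both. In set 2 it stood at 0.306 FPKM in siNT and 0.0546 FPKM with siDux. The siRpl14 library there held 1.495 FPKM and the siRpl14+siDux library 0.168 FPKM. In set 3 it was listed at 0 in all libraries except replicate 2 of siRpl14, so siDux cannot be checked there. The 10 pluripotent cell markers were above 0 in all 22 libraries. Their summed level was 8151 to 9051 FPKM in siNT of set 1 and 5573 to 6120 FPKM with siRpl14. Dppa5a made up most of that sum (5243 and 4351 FPKM in siNT, 3039 and 2668 FPKM with siRpl14). Nanog was lower with siRpl14 (349 and 378 against 270.2 and 237 FPKM), as were Pou5f1, Zfp42, Esrrb, Klf4, Tfcp2l1, Dppa5a and Tdgf1. Only Sox2 (224 and 219 against 272 and 288 FPKM) and Utf1 were higher. The summed level was 6950 to 7287 FPKM with siRpl11 and 6156 to 6295 FPKM with both. The 6 trophectoderm markers summed to 12.9 to 14.9 FPKM in siNT, 17.9 to 32.6 FPKM with siRpl14 and 6.53 to 8.56 FPKM in the libraries with siRpl11. In set 2 they summed to 9.38 FPKM in siNT, 45.1 FPKM with siRpl14 and 83.8 FPKM with siRpl14+siDux, and in set 3 to at most 2.05, 6.16 and 21.1 FPKM. The 6 primitive endoderm markers summed to at most 9.11 FPKM, and the 6 fibroblast feeder markers, of which Postn and Dcn were listed at 0, to at most 15.5 FPKM. Thy1 held 15.2 FPKM of that largest feeder sum. The part of these shifts in the results below was not tested. In bulk RNA, fewer cells of a type and less RNA per cell cannot be told apart.

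With siRpl14, most glycolytic and hypoxia response genes were lower. In set 1, 37 of the 38 members passed the filter (Car9, at 0.673 and 0.474 FPKM in siNT, did not). Of these, 18 fell and 2 rose with siRpl14 against siNT, where 13.4% of all 12129 genes tested fell and 18.1% rose. The median change of the 37 members was -0.68 in log2, beside 0.03 over all genes tested, and 34 of the 37 were below 0. Both siRpl14 libraries lay below both siNT libraries for 33 members, a pattern held by 32.9% of genes, and the exceptions were Pfkfb4, Pdk1, Hif1a and Kdm3a. In set 2 the siRpl14 library was lower than siNT by more than 0.5 for 28 of 37 members and higher for 2, where 16.3% of genes were lower by that much and 18% higher, with a median of -0.93. In set 3, where all 38 members passed the filter, 1 fell and none rose, where 0.129% of 13189 genes fell and 0.531% rose, and the median was -1.04 beside -0.05 over all genes. Without adjustment, 22 of 38 members of set 3 had a p under 0.05, where 12.4% of all genes did. In each of the 3 sets, every siRpl14 library lay below every siNT library for 29 of the 37 members, which 11.3% of genes did.

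**Figure D1:**
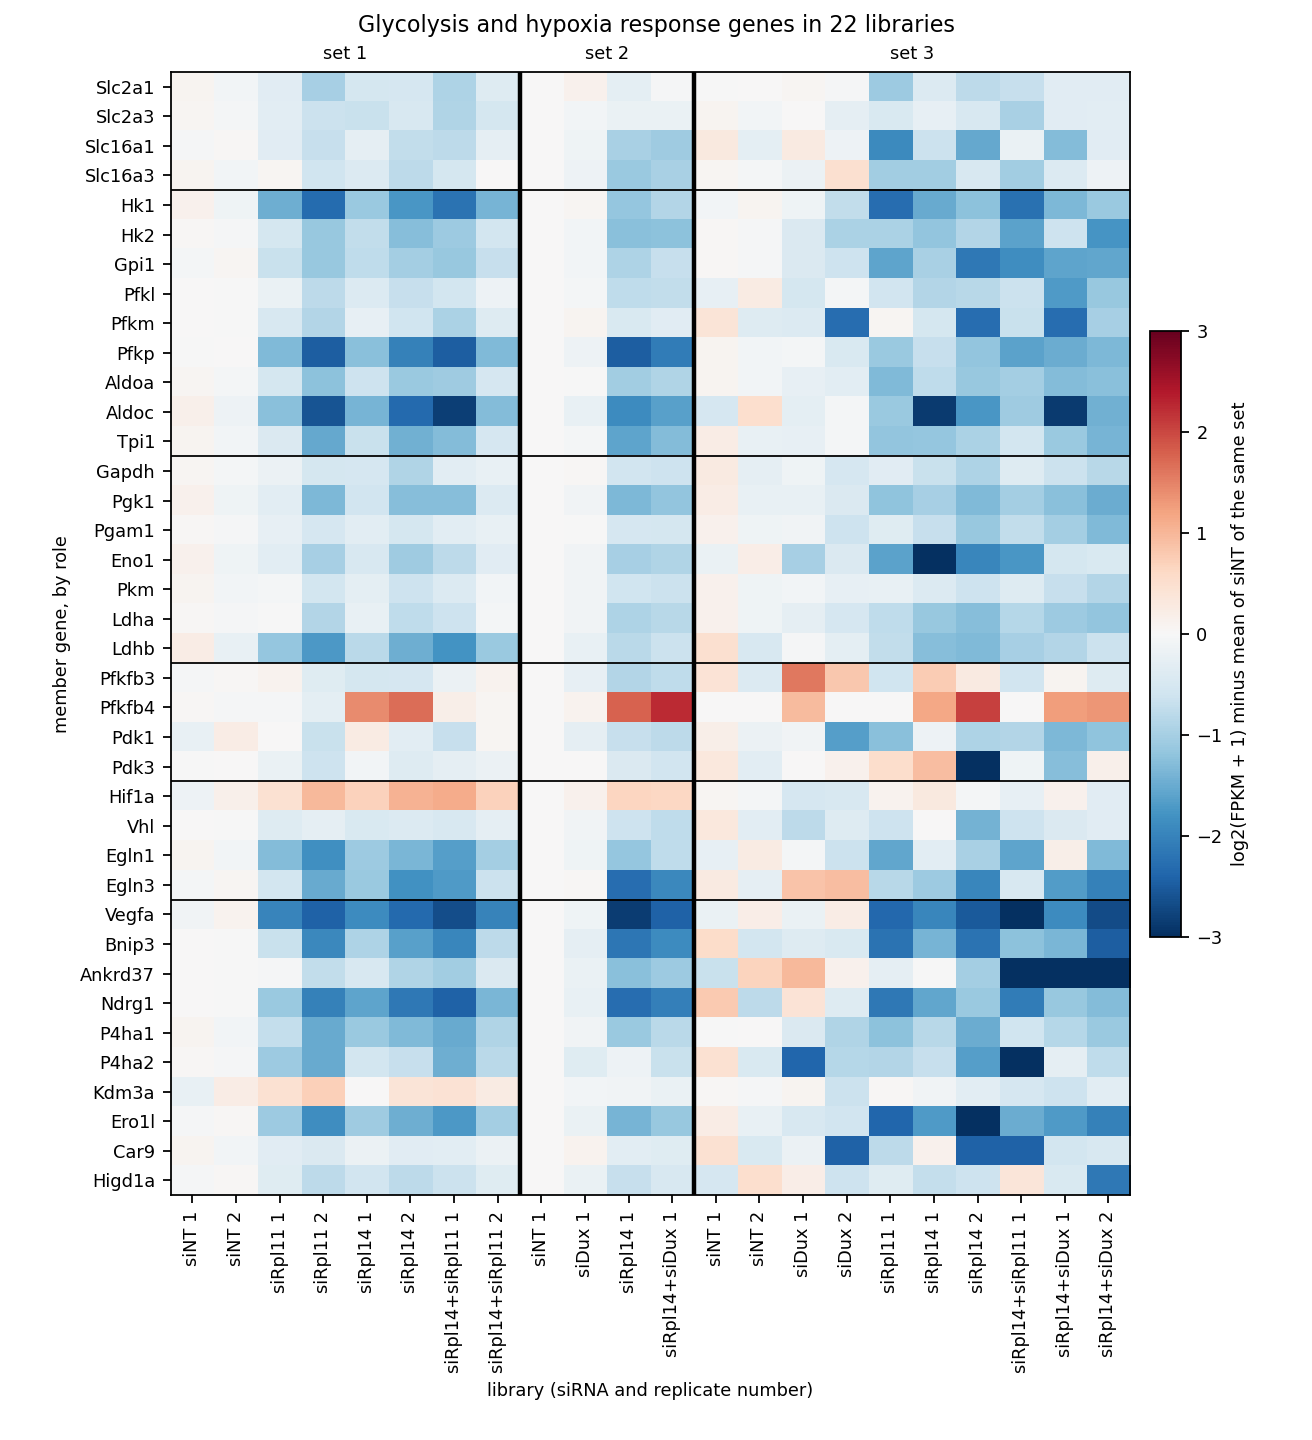
Each of the 38 members (vertical axis, grouped by role between horizontal lines) in each of 22 libraries (horizontal axis, with heavy lines between sets 1, 2 and 3), coloured by log2(FPKM + 1) minus the mean of siNT of the same set; colours saturate at 3 either way. Columns with siRpl14 or siRpl11 are mostly blue, those with siDux alone stay near white in set 2, and Hif1a and Pfkfb4 are red in the siRpl14 columns of sets 1 and 2.

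These counts rested on few libraries. The count of members that fell with siRpl14 in set 1 was 1 without replicate 1 of siNT, 1 without replicate 2 of siNT and 1 without replicate 2 of siRpl14, and 17 to 24 without any other library. Of the 20 calls, those of Vegfa and Pfkfb4 held under all 16 alternative settings.

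The promoters of these genes were searched for the core letters of the hypoxia response element, ACGTG and GCGTG, on both strands of the 250 bases before each start. Of the 38 members, 36 matched RefSeq promoters (GRCm38.p6), Ero1l by its synonym Ero1a, and Slc2a3 and Ndrg1 had no entry. Of 52 member promoters 41 (78.8%) held either motif, beside 38.6% of all 32851 promoters and 44% of 21263 promoters of protein-coding genes. Some promoters of the same gene overlap, as for Aldoa, Eno1 and Pfkm, so a site can count more than once. By gene, 33 of 36 members held either motif, beside 41.5% of 27025 genes. ACGTG alone was in 25 member promoters (48.1%, against 16.6% of all) and GCGTG in 29 (55.8%, against 28.2%). The E-box CACGTG, which contains ACGTG, was in 6 (11.5%, against 6.02%). The motifs hold the pair CG, and member promoters were richer in G and C, with a median of 62.4% against 52.4% over all and 55.6% over protein-coding promoters, and the part of this in the shares was not tested. The list includes genes chosen as HIF targets, so a surplus of these letters may come from that choice and is no result of the knockdowns. A match is a description of letters, not a bound site. The 6 sequences below are shown because they set members that fell in a knockdown (Pfkp, Bnip3, Ero1l and Egln1) beside the 2 that rose with siRpl14 (Hif1a and Pfkfb4). All 6 were taken from promoters with a match, so they do not compare the kinds. Gpi1 and Vhl, which also fell, and Tpi1 had no match in their promoters. Each runs 5′ to 3′ on the gene's strand up to the base before the start, with both motifs, in either orientation, in capitals.
Pfkp (chr13:6648772-6649021, minus strand): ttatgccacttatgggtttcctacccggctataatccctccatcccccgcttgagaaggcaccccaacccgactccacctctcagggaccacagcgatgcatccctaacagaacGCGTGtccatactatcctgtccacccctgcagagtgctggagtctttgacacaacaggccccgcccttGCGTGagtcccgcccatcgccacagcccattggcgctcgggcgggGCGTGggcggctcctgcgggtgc
Bnip3 (chr7:138909507-138909756, minus strand): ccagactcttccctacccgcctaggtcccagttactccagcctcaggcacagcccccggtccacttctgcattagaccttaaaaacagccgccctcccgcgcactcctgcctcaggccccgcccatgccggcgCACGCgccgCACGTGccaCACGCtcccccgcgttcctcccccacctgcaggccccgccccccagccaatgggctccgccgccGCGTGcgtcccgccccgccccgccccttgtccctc
Ero1l (chr14:45318573-45318822, minus strand): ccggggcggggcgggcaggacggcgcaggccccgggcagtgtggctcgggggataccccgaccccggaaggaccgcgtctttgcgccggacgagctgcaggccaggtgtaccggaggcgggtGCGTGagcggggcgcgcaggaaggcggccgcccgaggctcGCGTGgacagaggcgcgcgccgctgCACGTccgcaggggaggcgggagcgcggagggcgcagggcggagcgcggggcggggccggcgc
Egln1 (chr8:124949255-124949504, minus strand): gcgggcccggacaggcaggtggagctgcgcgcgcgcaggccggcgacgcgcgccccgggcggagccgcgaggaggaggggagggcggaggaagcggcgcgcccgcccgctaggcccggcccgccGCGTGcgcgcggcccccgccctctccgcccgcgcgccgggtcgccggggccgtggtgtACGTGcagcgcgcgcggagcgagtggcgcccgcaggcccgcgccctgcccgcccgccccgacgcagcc
Hif1a (chr12:73907617-73907866, plus strand): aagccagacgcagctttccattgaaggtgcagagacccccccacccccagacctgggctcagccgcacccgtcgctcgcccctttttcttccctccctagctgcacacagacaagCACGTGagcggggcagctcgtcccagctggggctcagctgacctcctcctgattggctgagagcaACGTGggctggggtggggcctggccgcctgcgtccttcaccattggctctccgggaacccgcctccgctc
Pfkfb4 (chr9:108991652-108991901, plus strand): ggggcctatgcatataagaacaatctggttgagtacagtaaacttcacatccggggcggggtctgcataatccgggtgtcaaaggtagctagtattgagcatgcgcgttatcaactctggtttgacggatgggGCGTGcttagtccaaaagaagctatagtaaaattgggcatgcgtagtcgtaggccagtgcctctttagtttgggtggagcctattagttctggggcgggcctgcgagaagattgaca
Bnip3 held 5 matches, Pfkp, Ero1l and Hif1a 3 each, Egln1 2 and Pfkfb4 1. CACGTG matches on both strands and was counted on each, as in Bnip3 and Hif1a, so matches are not separate sites there. Of the 2 Vegfa promoters listed, the upstream one (chr17:46032378-46032627, minus strand) held no match. The other (chr17:46025164-46025413), which lies downstream of that start, held 2.

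With siRpl11, alone or added to siRpl14, most members were also lower than in siNT. In set 1, 18 of 37 members fell and 2 rose with siRpl11, where 28.4% of genes fell and 16% rose, and the median was -0.66 beside -0.11 over all genes, which leaves -0.55 relative to all genes. Both siRpl11 libraries lay below both siNT libraries for 30 members (46.2% of genes did), and both libraries with siRpl14+siRpl11 for 30 (43.3%). That shift of all genes depended on the scaling: rises made up 36% of 5377 calls as deposited and 55.7% of 5433 calls after median-ratio scaling. Under that scaling 11 members fell, and the median of the members was -0.52 relative to all genes. With siRpl14+siRpl11, 17 fell and 1 rose, where 25% of genes fell and 16.6% rose, with a median of -0.71 beside -0.07. Rises made up 39.8% of 5043 calls there and 54% of 5125 calls after median-ratio scaling. Under that scaling 12 members fell, and the median of the members was -0.63 relative to all genes, beside -0.64 as deposited. These 3 comparisons share the siNT libraries, so their values are set side by side only. In set 3, the single siRpl11 library was lower than the mean of siNT by more than 0.5 for 27 of 37 members and higher for 1 (Pdk3), where 39.8% of genes were lower and 22.2% higher. The single siRpl14+siRpl11 library was lower for 30 and higher for none, where 39.5% were lower and 22.9% higher.

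Leaving out libraries moved these counts too. With siRpl11, the members that fell numbered 3 without replicate 1 of siNT, 6 without replicate 2 of siNT, 5 without replicate 2 of siRpl11 and 17 to 26 without any other. With siRpl14+siRpl11 they numbered 1 without replicate 1 of siNT, 6 without replicate 2 of siNT, 5 without replicate 1 of siRpl14+siRpl11 and 18 to 24 without any other. Under all 16 alternatives the calls of Vegfa, Egln1 and P4ha2 held with siRpl11, and that of Vegfa with both.

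**Figure D2:**
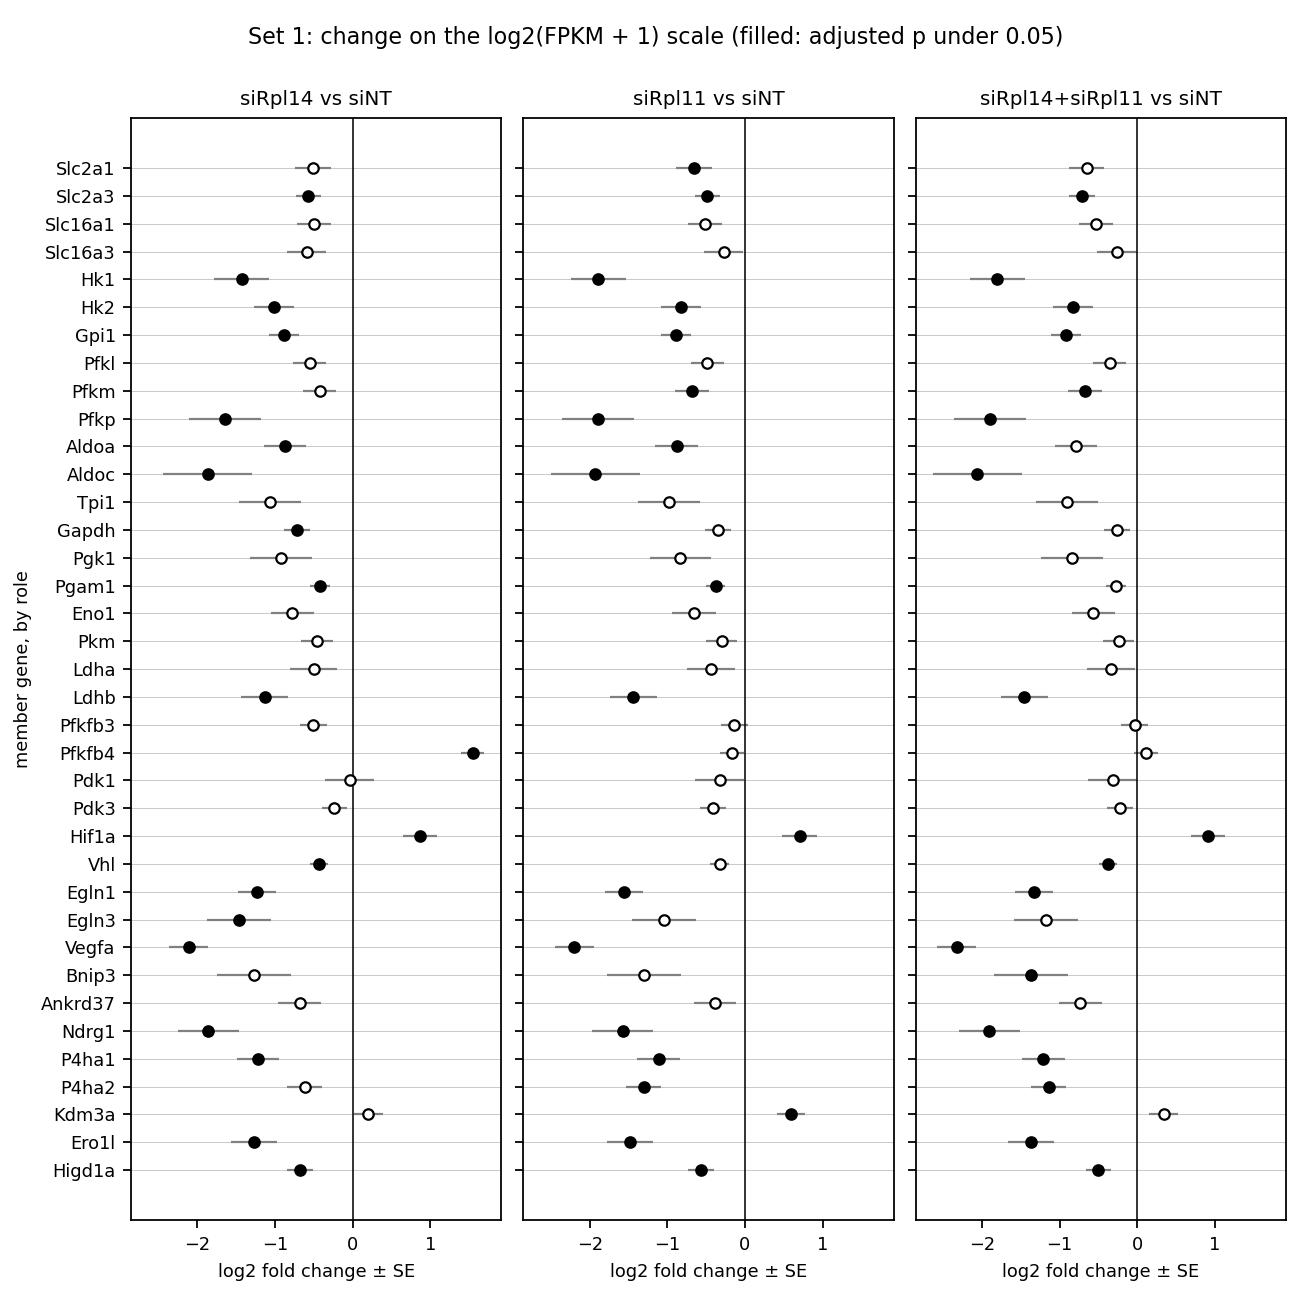
Change of the 37 members tested in set 1 on the log2(FPKM + 1) scale (horizontal axis; bars, SE; 2 libraries a group) with siRpl14, siRpl11 and both against siNT; filled points passed the adjusted threshold of 0.05. Nearly all points lie left of 0 in all 3 panels, Vegfa is lowest at -2.11, -2.20 and -2.33, and Pfkfb4 stands at 1.55 with siRpl14 alone.

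Among genes that respond to oxygen, Vegfa showed the largest fall in set 1. Vegfa encodes the main growth factor for blood vessels and is a textbook HIF target. It stood at 32.6 and 37.4 FPKM in siNT, 8.65 and 6.15 FPKM with siRpl14, 8.14 and 5.73 FPKM with siRpl11 and 4.72 and 7.96 FPKM with both. All 6 knockdown libraries were far below both controls. The changes were -2.11 ± 0.25 with siRpl14 (limma, adjusted p = 0.00216), -2.20 ± 0.25 with siRpl11 (adjusted p = 0.00239) and -2.33 ± 0.25 with both (adjusted p = 0.00264). In set 2 Vegfa stood at 24.6 FPKM in siNT and 22.6 FPKM with siDux, against 2.58 FPKM with siRpl14 and 3.76 FPKM with siRpl14+siDux. The siRpl14 library thus held 10.5% of its control, and the siDux library was close to it. In set 3 it stood at 12 and 16.1 FPKM in siNT and 11.9 and 16.4 FPKM with siDux, against 2.81 and 1.59 FPKM with siRpl14 and 3.06 and 1.32 FPKM with siRpl14+siDux, with 1.91 FPKM in the siRpl11 library and 0.800 FPKM in that with both siRNAs. The libraries with siRpl14 or siRpl11 did not overlap the others, yet the fall with siRpl14 (-2.25 ± 0.50) missed the threshold in this table (adjusted p = 0.127).

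Ndrg1, a stress-induced gene that marks hypoxic cells, stood at 42.9 and 42.7 FPKM in siNT of set 1, 13.6 and 8.95 with siRpl14, 19.2 and 9.67 with siRpl11 and 7.09 and 15.9 FPKM with both. No knockdown library came within reach of the controls, and the gene fell by 1.86, 1.58 and 1.91 on the log2 scale (adjusted p = 0.0123, 0.0146 and 0.00887). Bnip3, a mitochondrial protein that promotes mitophagy, stood at 197 and 195 FPKM in siNT, 103 and 62.6 with siRpl14, 122 and 50.9 with siRpl11 and 49.7 and 113 FPKM with both. Its replicates were far apart, and of its changes of -1.28, -1.30 and -1.37 the last alone passed (adjusted p = 0.0494), a call lost under 11 of 16 alternatives. Ero1l, an oxidase that forms disulfide bonds in the endoplasmic reticulum, stood at 27.6 and 29.2 FPKM in siNT, 12.9 and 9.72 with siRpl14, 12.9 and 7.04 with siRpl11 and 7.93 and 13.5 FPKM with both. It fell in all 3 comparisons, by 1.27, 1.48 and 1.37 (adjusted p = 0.0174, 0.00739 and 0.0105).

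P4ha1 and P4ha2 encode catalytic subunits of the prolyl hydroxylase that stabilises collagen. P4ha1 stood at 48.2 and 42.5 FPKM in siNT, 20.3 and 17.5 with siRpl14, 27.3 and 15.2 with siRpl11 and 15.2 and 23.6 FPKM with both, and fell in each (changes -1.22, -1.11 and -1.21). P4ha2 stood at 22.2 and 20.7 FPKM in siNT, 14.3 and 12.9 with siRpl14, 9.53 and 6.82 with siRpl11 and 7.08 and 11.8 FPKM with both. Its change with siRpl14 did not pass (-0.62 ± 0.22, adjusted p = 0.068), and it fell with siRpl11 (-1.31 ± 0.22, adjusted p = 0.00487) and with both (-1.14 ± 0.22, adjusted p = 0.00805). The direct difference between siRpl14 and siRpl11, 0.69 ± 0.22, missed the threshold (adjusted p = 0.083).

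Higd1a, a small mitochondrial protein induced by hypoxia, fell in all 3 comparisons (changes -0.68, -0.57 and -0.50). Ankrd37, an ankyrin repeat gene, had values of -0.68, -0.39 and -0.73, and none passed. Kdm3a, a histone H3 lysine demethylase, stood apart from the list: it was at 41.3 and 56.4 FPKM in siNT and 67 and 80.2 FPKM with siRpl11, where it rose (0.59 ± 0.18, adjusted p = 0.033), a call lost after quantile normalization, with no filter, and without replicate 1 of siNT or replicate 2 of siRpl11 (adjusted p at most 0.201 over the alternatives). Its change with siRpl14 was 0.20 ± 0.18. Car9, a carbonic anhydrase at the cell surface and a common hypoxia marker, lay under 1 FPKM in all 12 libraries of sets 1 and 2. Of the 10 members in this group, 5 fell with siRpl14, 6 with siRpl11 and 7 with both, where 13.4%, 28.4% and 25% of all genes did.

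The oxygen sensing genes moved in opposite directions. Hif1a, which encodes the oxygen-labile alpha subunit, stood at 16.1 and 19.9 FPKM in siNT of set 1, 29.7 and 37.8 with siRpl14, 24.7 and 35.8 with siRpl11 and 40.1 and 29.6 FPKM with both. All 6 knockdown libraries were above both controls. Hif1a rose by 0.87 ± 0.22 with siRpl14 (adjusted p = 0.0228), 0.70 ± 0.22 with siRpl11 (adjusted p = 0.034) and 0.91 ± 0.22 with both (adjusted p = 0.0153). Each call was lost without replicate 1 of siNT and without the library of lowest target (replicate 2 of siRpl14 or siRpl11, replicate 1 with both), and the first 2 also without replicate 2 of siNT, and the second with no filter (adjusted p at most 0.148, 0.201 and 0.104). These values are transcript levels, and Hif1a protein was not measured. In set 2 it was at 25.7 FPKM in siNT and 28 FPKM with siDux, against 40.4 FPKM with siRpl14 and 39.9 FPKM with siRpl14+siDux. Hif1a in set 3 was at 33.8 and 30.8 FPKM in siNT and 39.4 and 31.1 FPKM with siRpl14, which overlap, and the change there was 0.12 ± 0.27 (adjusted p = 0.917). The difference between the sets was not tested.

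Egln1 and Egln3 encode 2 of the prolyl hydroxylases that mark HIF alpha for destruction, and both are themselves known HIF targets. Egln1 stood at 22.6 and 19.9 FPKM in siNT, 9.4 and 7.64 with siRpl14, 8.07 and 5.25 with siRpl11 and 6.07 and 10 FPKM with both. It fell in all 3 comparisons (-1.23, -1.56 and -1.33; adjusted p = 0.0108, 0.00388 and 0.00664), with no overlap with siNT. Egln3 stood at 44.9 and 48.2 FPKM in siNT, 21 and 12.5 with siRpl14, 31.3 and 15.5 with siRpl11 and 13.6 and 29.4 FPKM with both. It fell with siRpl14 (-1.46 ± 0.41, adjusted p = 0.0307), and its changes of -1.04 ± 0.41 with siRpl11 and -1.17 ± 0.41 with both did not pass. Egln3 in set 2 went from 26.1 FPKM in siNT to 4.52 FPKM with siRpl14 and 6.1 FPKM with siRpl14+siDux, among the largest differences there. Vhl, the substrate receptor of the ligase, had small changes of -0.43, -0.32 and -0.38, of which the first and the last passed.

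**Figure D3:**
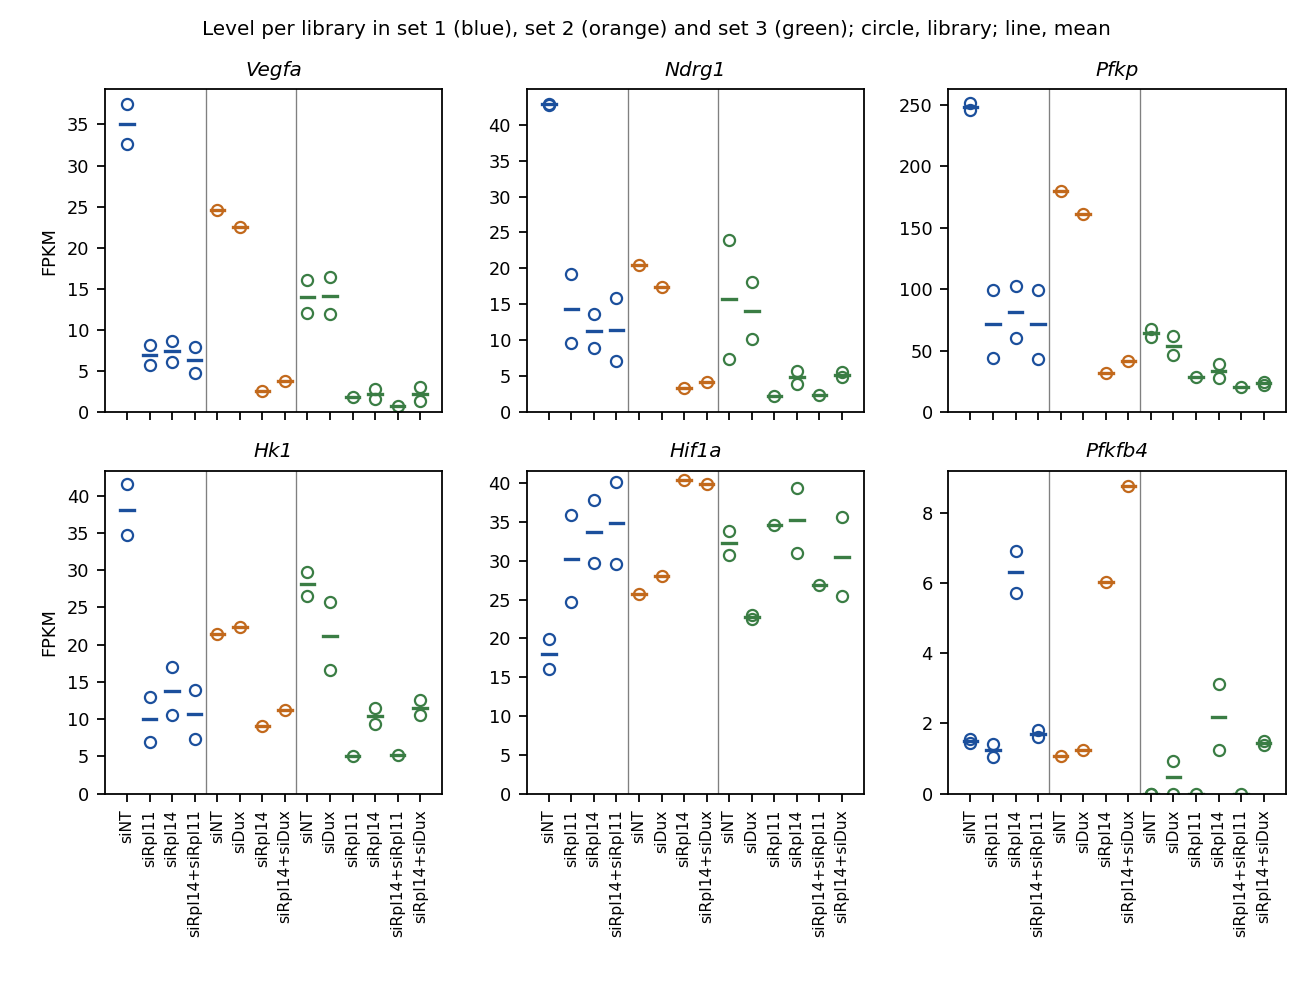
Level in FPKM (vertical axis, starting at 0) of 6 members in each kind of library, with grey lines between sets; circles are libraries and lines are means of 1 or 2 libraries. Vegfa, Ndrg1, Pfkp and Hk1 are lower in each column with siRpl14 or siRpl11 than in siNT of the same set, Hif1a is higher in sets 1 and 2 but overlaps siNT in set 3, and Pfkfb4 is high with siRpl14 and siRpl14+siDux but not where siRpl11 was present.

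Upper glycolysis, from glucose to triose phosphate, held most of the calls among the enzymes: 6 of 9 members fell with siRpl14, 7 with siRpl11 and 6 with both. Of all genes tested, 13.4%, 28.4% and 25% fell in these comparisons. Pfkp, the platelet isoform of phosphofructokinase, which commits sugar to the pathway, stood at 245 and 251 FPKM in siNT, 103 and 60.4 with siRpl14, 99.2 and 43.9 with siRpl11 and 43.6 and 99.3 FPKM with both. No library with a knockdown reached the controls. The changes were -1.64 ± 0.46 (adjusted p = 0.0321), -1.89 ± 0.46 (adjusted p = 0.0145) and -1.90 ± 0.46 (adjusted p = 0.0158). The sister isoforms moved less: Pfkl, of liver, changed by -0.55, -0.49 and -0.36, with no call, and Pfkm, of muscle, by -0.43, -0.69 and -0.67, with calls in the last 2.

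Hexokinases phosphorylate glucose on entry. Hk1 stood at 41.6 and 34.7 FPKM in siNT, 17 and 10.6 with siRpl14, 13 and 6.89 with siRpl11 and 7.35 and 13.9 FPKM with both, and fell by 1.43, 1.89 and 1.80 (adjusted p = 0.0207, 0.0061 and 0.00789). Hk2, the inducible isoform, stood at 62.1 and 59.8 FPKM in siNT, 36.1 and 24.4 with siRpl14, 42.2 and 27.3 with siRpl11 and 28.1 and 41 FPKM with both, and fell by 1.01, 0.82 and 0.82 (adjusted p = 0.0234, 0.0343 and 0.0359). Both were below siNT in every knockdown library of set 1. Hk1 in set 3 was 26.6 and 29.8 FPKM in siNT and 9.28 and 11.5 FPKM with siRpl14, again without overlap.

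Aldolases split the sugar into 2 trioses. Aldoc, the brain isoform, stood at 34.7 and 27.8 FPKM in siNT, 11.1 and 5.37 with siRpl14, 12.4 and 4.29 with siRpl11 and 3.55 and 12 FPKM with both. It fell in each (-1.87 ± 0.57, -1.93 ± 0.57 and -2.06 ± 0.57; adjusted p = 0.0419, 0.0288 and 0.0244), with the widest error of the list in set 1. In set 3 Aldoc was listed at 0 in replicate 1 of siRpl14 and of siRpl14+siDux. Aldoa, the main isoform, fell with siRpl14 (-0.87 ± 0.27) and with siRpl11 (-0.88 ± 0.27). Gpi1, glucose phosphate isomerase, fell in all 3 comparisons (changes -0.88, -0.89 and -0.92), and Tpi1, triose phosphate isomerase, had values of -1.06, -0.98 and -0.90 that did not pass.

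Lower glycolysis, from triose phosphate to lactate, holds the most abundant members. Its 7 genes had median changes of -0.71, -0.44 and -0.34 with siRpl14, siRpl11 and both, and 3, 2 and 1 fell, whereas the 9 genes of upper glycolysis had medians of -1.01, -0.89 and -0.90. Of all genes 13.4%, 28.4% and 25% fell, so the lower glycolysis count was near that share with siRpl11 and below it with both. In siNT of set 1 Gapdh was highest at 3921 ± 244 FPKM (SD, n = 2), followed by Pkm at 2618 ± 189, then Ldha at 2119 ± 77, Eno1 at 2088 ± 286 and Aldoa at 2003 ± 96.9. The last 3 of these overlapped, and Pgk1 followed at 973 ± 118 FPKM. At the low end of the order were Pfkfb4 at 1.5 ± 0.0957 FPKM and Car9 at 0.573 ± 0.141 FPKM.

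Gapdh, glyceraldehyde phosphate dehydrogenase, stood at 4093 and 3748 FPKM in siNT, 2747 and 2081 with siRpl14, 3452 and 2735 with siRpl11 and 3146 and 3384 FPKM with both. It fell with siRpl14 (-0.71 ± 0.17, adjusted p = 0.0179), and its changes of -0.35 ± 0.17 and -0.26 ± 0.17 in the other 2 did not pass. Ldhb, the heart-type lactate dehydrogenase, stood at 393 and 289 FPKM in siNT, 191 and 122 with siRpl14, 150.0 and 102 with siRpl11 and 96.6 and 154 FPKM with both. It fell by 1.13, 1.44 and 1.46 (adjusted p = 0.0264, 0.00853 and 0.00934).

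Ldha, the muscle-type enzyme that makes lactate, stood at 2173 and 2064 FPKM in siNT, 1804 and 1240.4 with siRpl14, 2110.0 and 1160.2 with siRpl11 and 1381 and 2034 FPKM with both. The first siRpl11 library overlapped siNT, and no change of Ldha passed in set 1 (-0.50, -0.44 and -0.34). In set 3, where Ldha was 852 and 718 FPKM in siNT, 357 and 322 with siRpl14 and 366 and 344 FPKM with siRpl14+siDux, it was the member that fell with siRpl14 (-1.20 ± 0.16, adjusted p = 0.0238). That call was lost without trended and robust moderation and without any 1 library of siNT, siRpl14 or siRpl14+siDux, and the adjusted p under the alternatives ran up to 0.211. Pgk1, phosphoglycerate kinase, stood at 1057 and 889.8 FPKM in siNT of set 1, 649 and 401 with siRpl14, 784 and 379 with siRpl11 and 398 and 732 FPKM with both. Its replicates were far apart and its changes of -0.92, -0.83 and -0.84 did not pass. Pgam1, phosphoglycerate mutase, fell with siRpl14 (-0.42 ± 0.12) and siRpl11 (-0.37 ± 0.12). Eno1, enolase, and Pkm, pyruvate kinase, changed by -0.78 and -0.46 with siRpl14, and neither passed in any comparison of set 1. Eno1 was listed near 0 in replicate 1 of siRpl14 in set 3, so no fold is given there. Several of these enzymes (Gapdh, Ldha, Pgk1, Pgam1, Eno1) have near-identical processed copies in the mouse genome, and how the authors counted shared reads is not given in the sources used here, so their levels are uncertain to that extent.

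Transporters had median changes of -0.54 with siRpl14, -0.50 with siRpl11 and -0.59 with both, and 1, 2 and 1 of 4 fell. Of all genes 13.4%, 28.4% and 25% fell, so with both the transporter count was near that of all genes. Slc2a1 (GLUT1), the general glucose carrier, stood at 711 and 637 FPKM in siNT, 466 and 478 with siRpl14, 535 and 339.6 with siRpl11 and 356 and 513 FPKM with both. It fell with siRpl11 (-0.66 ± 0.23, adjusted p = 0.0488), a call lost under 9 of 16 alternatives, and its other changes, -0.51 and -0.65, did not pass. Slc2a3 (GLUT3), a high-affinity carrier, fell in all 3 comparisons (changes -0.57, -0.48 and -0.71). The lactate carriers Slc16a1 (MCT1) and Slc16a3 (MCT4) had changes between -0.59 and -0.26, with no call.

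Summed over the 16 glycolytic enzymes, the level was 2.79 to 2.85% of all FPKM in siNT of set 1, 1.57 to 2.09% with siRpl14, 1.56 to 2.33% with siRpl11 and 1.81 to 2.32% with both. In set 2 it was 2.28% in siNT, 2.19% with siDux, 1.32% with siRpl14 and 1.37% when siDux was added. In set 3 the 2 siNT libraries held 1.11 to 1.35%, the siDux libraries 0.905 to 1.07%, the siRpl14 libraries 0.613 to 0.720% and the siRpl14+siDux libraries 0.573 to 0.644%. In each set the libraries with siRpl14 lay below those of siNT without overlap, and in set 3 those with siDux alone did too. The 10 HIF targets outside glycolysis together held 0.0868 to 0.0966% in siNT of set 1 and 0.0449 to 0.0526% with siRpl14.

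**Figure D4:**
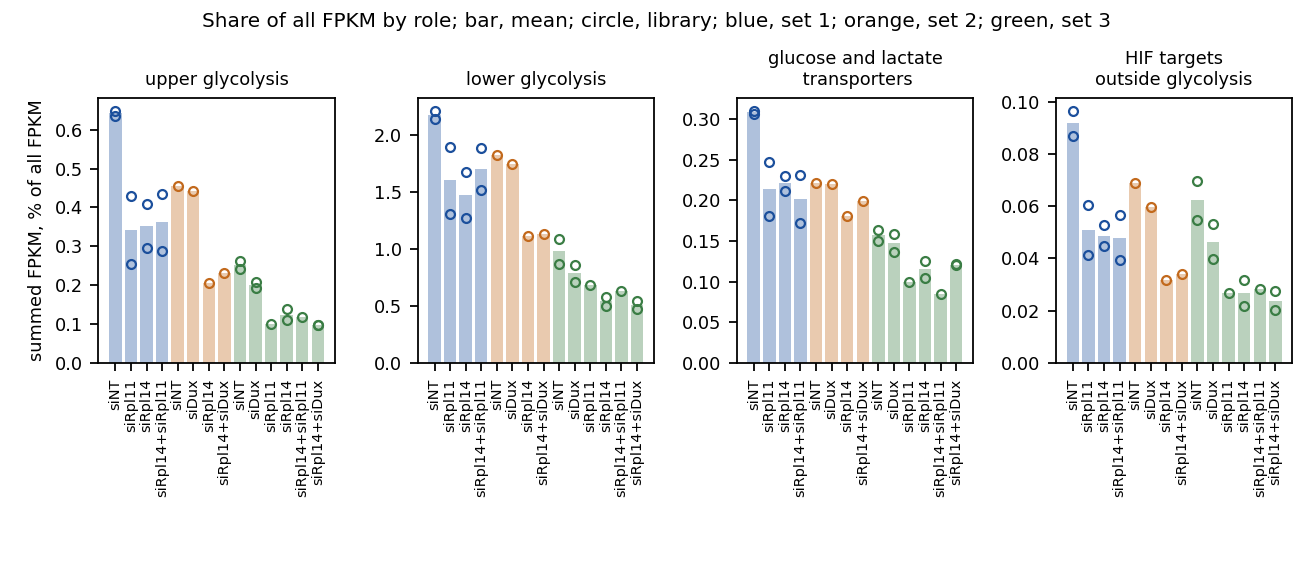
Summed FPKM of 4 groups of members as a percent of all FPKM in the library (vertical axes, starting at 0 and differing between panels), by kind of library; bars are means and circles are libraries. In each set and panel the bars with siRpl14 or siRpl11 lie below siNT, and the siDux bar of set 2 lies near siNT.

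Pfkfb4 went against the rest. It encodes a bifunctional kinase and phosphatase that sets fructose 2,6-bisphosphate, the activator of phosphofructokinase, and is known as a HIF target. It stood at 1.57 and 1.43 FPKM in siNT of set 1, 5.71 and 6.92 FPKM with siRpl14, 1.42 and 1.04 FPKM with siRpl11 and 1.81 and 1.6 FPKM with both. The siRpl14 libraries were far above the other 6, which lay together. Pfkfb4 rose with siRpl14 (1.55 ± 0.15, adjusted p = 0.00125) and was higher with siRpl14 than with siRpl11 (1.71 ± 0.15, adjusted p = 0.00138). It was the 1 member of 37 that differed when siRpl11 was added to siRpl14 (-1.43 ± 0.15, adjusted p = 0.00395), in a comparison where 6.61% of genes fell and 0.627% rose. It was also the 1 member called between siRpl14 and siRpl11, where 12% of genes were higher and 1.45% lower with siRpl14. In both, rises and falls of all genes depended on scaling: the share of calls that were rises went from 8.66% to 24.9% in the first and from 89.2% to 54.6% in the second after median-ratio scaling, but the calls of Pfkfb4 held under all 16 alternatives.

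In set 2 Pfkfb4 stood at 1.07 FPKM in siNT and 1.23 FPKM with siDux, against 6.03 FPKM with siRpl14 and 8.77 FPKM with siRpl14+siDux. In set 3 it was listed at 0 in both siNT libraries, in the siRpl11 library and in that with both siRNAs, and stood at 1.25 and 3.12 FPKM with siRpl14, 1.38 and 1.5 with siRpl14+siDux and 0.932 and 0 FPKM with siDux. Against a control listed at 0 no fold is given. Pfkfb4 was the 1 member for which every siRpl14 library lay above every siNT library in all 3 sets, a pattern held by 11.8% of genes. In set 3, however, it passed the filter only through libraries with siRpl14, so that set is no separate support for the pattern. Its relative Pfkfb3, a kinase of the same family, stood at 14.3 and 15.3 FPKM in siNT and 10 and 10.2 FPKM with siRpl14 (-0.51 ± 0.17, adjusted p = 0.0561). Pdk1 and Pdk3 encode pyruvate dehydrogenase kinases, which hold back the use of pyruvate in mitochondria. Pdk1 stood at 38.7 and 52.3 FPKM in siNT, 53.3 and 35.9 with siRpl14, 45.6 and 28 with siRpl11 and 27.6 and 46.7 FPKM with both, overlapping throughout (change -0.04 with siRpl14). Pdk3 changed by -0.24, -0.41 and -0.22, with no call.

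Whether both knockdowns added up was tested by the interaction in set 1, the change with both siRNAs beyond the sum of the single changes on the log2 scale. Sums of the 2 single changes were larger than the change with both for most members: the interaction was above 0 for 34 of 37, with a median of 0.78 beside -0.01 over all genes. Of the members, Vegfa (1.98 ± 0.35, adjusted p = 0.0313) passed above 0 and Pfkfb4 (-1.26 ± 0.21, adjusted p = 0.0285) below 0, where 1.83% and 2.65% of genes did, and 17 of 37 members (45.9%) had an unadjusted p under 0.05, where 29.1% of genes did. Both calls were lost with the replicate block and without either siNT library, either siRpl11 library, replicate 2 of siRpl14 or replicate 2 of siRpl14+siRpl11 (adjusted p at most 0.121 for Vegfa and 0.112 for Pfkfb4 over the alternatives). Both single changes share the siNT libraries, so the spread of those libraries enters the interaction of every member. Against siRpl14 alone, adding siRpl11 left the members with a median of 0.01.

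No member was called with siDux alone. In set 2, no member of 37 differed between siDux and siNT by more than 0.5, where 0.793% of genes were higher and 0.81% lower, and the differences ran from -0.37 to 0.12. In set 3, no member passed in siDux against siNT (limma, adjusted over all genes, where 0.00758% of genes rose and 0% fell), and 2 members had an unadjusted p under 0.05, where 5% of genes did. The median there was -0.29 beside 0.00 over all genes, and both siDux libraries lay below both siNT libraries for 13 of 38 members, a pattern held by 15.6% of genes, and above them for 2 (14.1%).

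Adding siDux to siRpl14 left the members low. In set 2 the siRpl14+siDux library was lower than siNT for 30 of 37 members and higher for 2, where 16.8% of genes were lower and 19.8% higher. Against the siRpl14 library, 1 member (P4ha2, -0.51) was lower by more than 0.5 and none higher, where 1.7% were lower and 2.51% higher, with a median of 0.14. In set 3, Ldha (-1.14 ± 0.16, adjusted p = 0.019), Aldoa (-1.28 ± 0.16, adjusted p = 0.0149) and Pgk1 (-1.37 ± 0.21, adjusted p = 0.0296) fell with siRpl14+siDux against siNT, where 0.311% of genes fell and 0.713% rose. None of these 3 calls was kept without either siNT or either siRpl14+siDux library. No member was called between siRpl14+siDux and siRpl14 or in the interaction of siRpl14 and siDux in set 3, where 0.00758% of genes were called in each direction, and 2 and 3 members had an unadjusted p under 0.05, where 6.78% and 5.3% of genes did. Ankrd37 was listed at 0 in both siRpl14+siDux libraries of set 3 against 4.6 and 13.1 FPKM in siNT and 7.83 and 3.41 FPKM with siRpl14.

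In each knockdown group of set 1, the replicate with less of its target had the lower level of most members. With siRpl14, replicate 2 had the lower Rpl14 and was below replicate 1 for 30 of 37 members, which 45.1% of genes were. With siRpl11, replicate 2 had the lower Rpl11 and was below replicate 1 for 34 members (50.8% of genes). With both siRNAs, replicate 1 had the lower Rpl14 and Rpl11 and was below replicate 2 for 34 members (52.7% of genes). The median difference of replicate 2 from replicate 1 was -0.38, -0.58 and 0.56 in log2(FPKM + 1) in these groups, beside -0.05 in siNT. Without a knockdown, in siNT, replicate 2 was also below replicate 1 for 25 of 37 members, where 41.1% of genes were. Pfkp, for example, held 41.5 and 24.3% of the siNT mean in the siRpl14 libraries, 40.0 and 17.7% in the siRpl11 libraries and 17.6 and 40.0% in the libraries with both. Markers of other cells also differed between these replicates, at low sums and not all in one direction. The primitive endoderm markers summed to 4.70 and 9.11 FPKM with siRpl14, 3.52 and 7.42 FPKM with siRpl11 and 8.24 and 3.54 FPKM with both, higher each time in the replicate with less target. The trophectoderm markers summed to 17.9 and 32.6 FPKM with siRpl14, 6.53 and 7.72 FPKM with siRpl11 and 8.56 and 7.41 FPKM with both. The sum of the fibroblast feeder markers went the other way, lower each time in the replicate with less target. These markers summed to 8.95 and 4.93 FPKM with siRpl14, 5.90 and 4.96 FPKM with siRpl11 and 4.64 and 6.05 FPKM with both. Thy1 alone made up most of each sum, at 8.11 and 4.44, 5.68 and 4.79, and 4.47 and 5.79 FPKM in that order. The sum is therefore close to a reading of that gene. The part of all these markers in the result was not tested. Each group has only 2 libraries, and other differences between them were not tested.

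**Figure D5:**
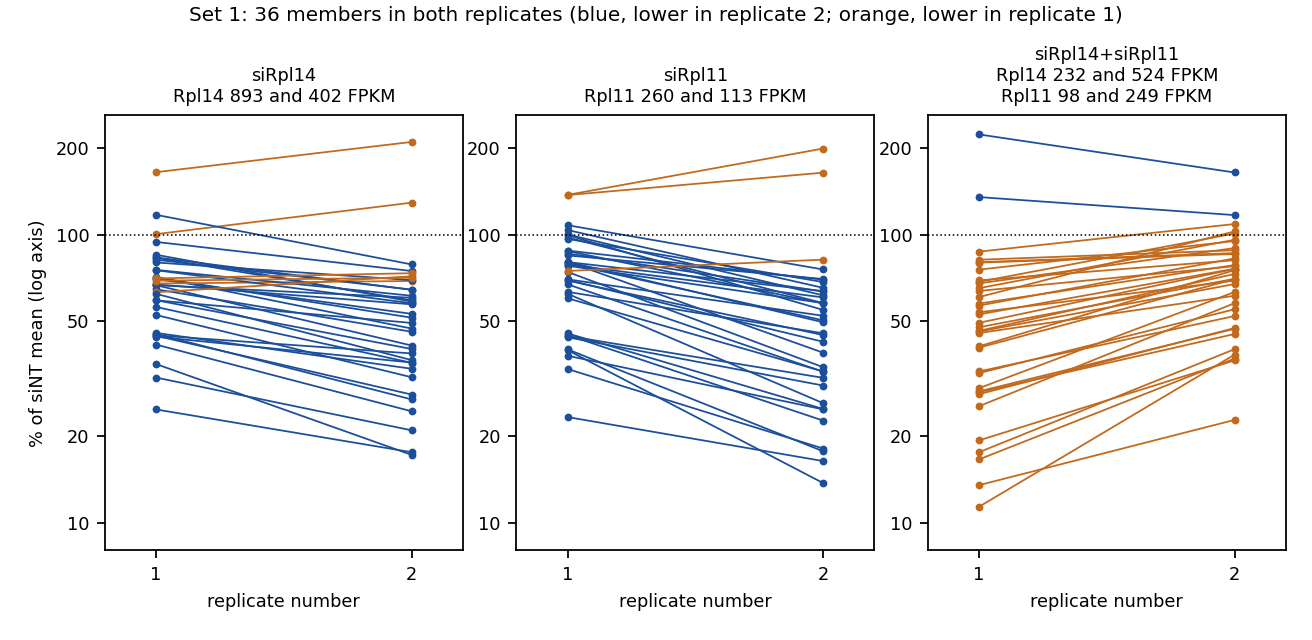
Level of 36 members (all tested in set 1 but Pfkfb4) in replicates 1 and 2 (horizontal axis) as a percent of the siNT mean of set 1 (vertical log axis, dotted line at 100%), joined by member, with the remaining target level above each panel. Lines mostly fall to replicate 2 with siRpl14 and siRpl11, where replicate 2 has less target, and mostly rise to replicate 2 with both, where replicate 1 has less.

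The control itself differed between sets. The siNT library of set 2 lay below both siNT libraries of set 1 for 31 of 37 members, where 41.2% of genes did, with a median difference of -0.41 beside -0.02 over all genes. Aldoc in that library was 0.435 times the set 1 mean, Ndrg1 0.480 times and Vegfa 0.702 times, while Hif1a was 1.43 times and Kdm3a 1.34 times. Sets 1 and 2 share a table, so this difference is within one normalization, and its cause was not tested. The fall within set 2 is therefore measured from a lower start. In a fit of sets 1 and 2 together with the set as a term, 28, 25 and 22 members fell with siRpl14, siRpl11 and both, where 21.8%, 30.6% and 27.2% of all genes fell.

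Across all sets, 15 of 37 members were lower in every library with siRpl14 or siRpl11 than in every siNT and siDux library of the same set, a pattern held by 2.77% of genes. They were Slc2a1, Hk1, Gpi1, Pfkl, Pfkp, Aldoa, Aldoc, Tpi1, Pgk1, Ldhb, Egln3, Vegfa, Bnip3, Ndrg1 and Ero1l, which take in transport, upper and lower glycolysis, oxygen sensing and HIF targets.

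Other genes of the pathway, a list of 65 of which 63 were in the tables and 54 were tested in set 1, are read against the same shares of all genes that fell: 13.4% with siRpl14, 28.4% with siRpl11 and 25% with both. The shares that rose were 18.1%, 16% and 16.6%. Of 23 other HIF targets, 7 fell and 2 rose with siRpl14, 9 fell and 2 rose with siRpl11, and 10 fell and 1 rose with both, with medians of -0.49, -0.42 and -0.49. The largest falls with siRpl14 were those of Bhlhe40, a transcriptional repressor of the circadian clock (-1.94), Pgm2, a phosphoglucomutase (-1.75), and Loxl2, a lysyl oxidase of the extracellular matrix (-1.48). The 2 that rose with siRpl14 were Ddit4, an inhibitor of mTORC1 (0.76), and Angptl4, an inhibitor of lipoprotein lipase (0.71). Hmox1, heme oxygenase, rose with siRpl11 (0.76) and with both (0.77).

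Of 8 other glycolytic isoforms, 2 fell with siRpl14, 4 with siRpl11 and 3 with both, led by Eno2, the neuronal enolase (-0.96, -1.39 and -1.22). Of 16 genes of the pentose phosphate and pyruvate branches, 3, 10 and 9 fell and none rose, so with siRpl14 the count was near that of all genes. Among those that fell were Tkt, transketolase (-0.84 with siRpl14), and Pdk2, a pyruvate dehydrogenase kinase (-0.82, -1.30 and -1.10). Of 7 other regulators of the HIF pathway, none was called with siRpl14, whereas with siRpl11 Rbx1, a subunit of the Vhl ligase (0.61), Hif1an, the asparagine hydroxylase that limits HIF activity (0.49), Cul2 (0.41) and Arnt (0.33) rose and Hif3a fell (-0.72). The difference between siRpl14 and siRpl11 passed for none of these 7.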

How the data were processed

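The authors deposited FPKM values as 2 tables, with a column for every library. STAR, Cuffnorm and the mm9 build were used, per the submitters' processing notes. Not given in the sources used here: versions, gene models, strand setting and scaling. Scaling may differ between tables, so no test crosses them. Set 1 has 8 libraries, set 2 has 4 and set 3 has 10, and 0 sample columns were left unused.

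A gene was kept if 2 libraries or more of a fit reached 1 FPKM. Tests used log2(FPKM + 1) and limma 3.58.1 (R 4.3.3, statmod 1.5.0) with a mean-variance trend and robust eBayes, on group means without a replicate block. The fit of set 3 omits its single siRpl11 and siRpl14+siRpl11 libraries. There were 6 contrasts in set 1 and 5 in set 3. Fold changes on this scale understate changes of low genes. A further check changed 100 genes by 1 and 100 by 2 in log2 in simulated data and left all others unchanged. The test of siRpl14 against siNT recovered 72 and 95 in set 1, with 7 false calls among 11608 unchanged genes. It recovered 0 and 0 in set 3. The deposited data gave 3822 calls in that comparison in set 1. In set 3 they gave 87, among them Rpl14 (-1.95 ± 0.17, limma, adjusted p = 0.00672). The recovered counts therefore do not carry over to the deposited data.

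Read depth is unknown, because low values share no common step. Of all genes, 30.1 to 32.1% were listed at 0 in sets 1 and 2 and 50.5 to 56.2% in set 3, and the 10th percentile of values above 0 was 0.0538 to 0.0821 FPKM and 1.08 to 1.60 FPKM. Replicates correlated at r = 0.975 to 0.978 across genes in set 1 and 0.808 to 0.853 in set 3 (genes are not independent replicates).

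Members and lists were chosen with earlier results of these data known. Values by library are given for up to 10 called members with the largest change in each contrast of set 1, and for Vegfa, Slc2a1, Hk2, Ldha, Pgk1, Gapdh, Pdk1, Hif1a and Egln3. Other pathway genes are named for up to 3 per list and direction. RefSeq promoters (GRCm38.p6) were matched by symbol, not by mm9 coordinates. Alternatives were quantile and median-ratio scaling, a pseudocount of 0.1, no filter, a filter of 5 FPKM, no trended or robust moderation, the replicate block, each library left out, sets 1 and 2 together, and a difference of 1 for single libraries.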

Additional observations from a re-analysis of the deposited data

Results flagged for a closer look

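In 2 cases the effect of siRpl14 differed between cells with and without siRpl11 in set 1 by the test of the difference itself (the interaction in limma). For Vegfa the interaction was 1.98 ± 0.35 (adjusted p = 0.0313), with 4.72 and 7.96 FPKM with both siRNAs against either alone (8.65 and 6.15 FPKM with siRpl14 and 8.14 and 5.73 FPKM with siRpl11). For Pfkfb4 it was -1.26 ± 0.21 (adjusted p = 0.0285), with 5.71 and 6.92 FPKM with siRpl14 and 1.81 and 1.6 FPKM with both. Of 16 alternatives, 8 lost each call. Both single changes were measured from the same 2 siNT libraries, whose spread enters the interaction too. Rpl14 was also left at unequal levels, 893 and 402 FPKM with siRpl14 against 232 and 524 FPKM with both. The part of these in the 2 calls was not tested.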

How the results depend on the processing

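With 1 library left out at a time, counts of members and of all genes called in set 1 ran as follows. With siRpl14, 1 to 2 members rose, 1 to 24 fell and 752 to 3851 genes were called. With siRpl11 the counts were 0 to 2, 3 to 26 and 1778 to 5592, and with both 0 to 1, 1 to 24 and 1307 to 5255. Both against siRpl14 gave 79 to 670 genes. siRpl14 against siRpl11 gave 1 to 2 members higher and 379 to 1380 genes. The interaction gave 0 to 3 members above 0, 0 to 1 below and 2 to 1199 genes. In set 3, siRpl14 gave 0 to 1 members lower and 8 to 45 genes, siDux 0 genes, and siRpl14+siDux 0 to 3 members lower and 26 to 90 genes. Against siRpl14, siRpl14+siDux gave 0 to 1 members higher and 0 to 3 genes, and the interaction with siDux 0 to 1 members above 0 and 0 to 2 genes.

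With sets 1 and 2 together, siRpl14 gave 28 members lower and 5904 genes, both against siRpl14 gave 1444 genes, siRpl14 against siRpl11 gave 2 members higher, and the interaction gave 9 members above 0 and 1811 genes. Quantile normalization gave 1 member higher with siRpl11, 463 genes for both against siRpl14, 993 for siRpl14 against siRpl11 and 2 members above 0 in the interaction. Median-ratio scaling gave 11 members lower with siRpl11, where 5433 genes were called in either direction. No filter gave 0 members higher with siRpl11, 0 above 0 and 313 genes in the interaction, 54 genes for siRpl14 in set 3 and 1 gene for the interaction with siDux. The stricter filter gave 491 genes for both against siRpl14, 979 for siRpl14 against siRpl11, 0 members below 0 and 264 genes in the interaction, in set 3, 3 members lower with siRpl14, 5 with siRpl14+siDux and 10 genes between these. The pseudocount of 0.1 gave 16 genes between them, and 2 members higher in set 2. No trended or robust moderation gave, in set 3, 0 members lower and 36 genes with siRpl14, 3 genes with siDux, 0 members lower with siRpl14+siDux, 19 genes between siRpl14+siDux and siRpl14 and 13 for the interaction.

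A difference beyond 1 gave, in set 2, 1 member higher and 16 lower with siRpl14, 1 and 12 with siRpl14+siDux and 0 lower between them, and in set 3, 0 higher with siRpl11 and 17 lower with both, where either scaling gave 1 higher.

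Replicate numbers were not taken to pair libraries. Deviations of same-numbered libraries correlated at 0.18 to 0.51 among siNT, siRpl11 and siRpl14 of set 1, at -0.51 to -0.24 with both, and at 0.02 to 0.05 in set 3. With the replicate block, 15, 14 and 14 members fell with siRpl14, siRpl11 and both, both against siRpl14 gave 539 genes, and the interaction gave 0 members either way and 27 genes. In set 3 the block gave 4 members lower with siRpl14, 6 with siRpl14+siDux, 0 genes with siDux, 1 gene between siRpl14+siDux and siRpl14 and 1 for the interaction.

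Directions turned for some changes near 0 when 1 library was left out, and the ranges then were, in set 3, -0.052 to 0.28 for Hif1a with siRpl14 and -0.33 to 0.14 with siRpl14+siDux, -0.031 to 0.048 for Slc2a1 with siDux and -0.21 to 0.22 for Vegfa with siDux. In set 1 they were -0.67 to 0.017 for Pdk1 with siRpl11, -0.32 to 0.24 with siRpl14 and -0.68 to 0.052 with both. The cause of these shifts was not tested. Read depth is unknown and limits low genes, most of all in set 3.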

Other observations

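Epas1, which encodes the alpha subunit of HIF-2, is not among the members. In set 3 it stood at 4.71 and 6.04 FPKM in siNT and 12.3 and 11.4 FPKM with siDux, against 56.6 and 43.2 FPKM with siRpl14 and 55.9 and 65.2 FPKM with siRpl14+siDux. It stood at 10.8 FPKM in the single siRpl11 library and at 16 FPKM in the single siRpl14+siRpl11 library. In the limma fit it rose by 2.99 ± 0.29 with siRpl14 (adjusted p = 0.00702) and by 3.27 ± 0.29 with siRpl14+siDux (adjusted p = 0.00301). In set 1 it stood at 7.81 and 9.81 FPKM in siNT, 8.41 and 9.41 with siRpl14, 9.8 and 13.5 with siRpl11 and 12.1 and 9.67 FPKM with both. In set 2 it stood at 9.58 FPKM in siNT and 11.7 FPKM with siDux, against 8.44 FPKM with siRpl14 and 7.47 FPKM with siRpl14+siDux. The difference between the tables was not tested, and this gene was singled out after its values were seen.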
